A study of Mus musculus with 4 samples.

Results

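The genes described here are 10 regulators of phosphate and mineral around the hormone gene *Fgf23*, namely *Fgf23*, *Phex*, *Dmp1*, *Mepe*, *Fam20c*, *Galnt3*, *Slc20a1*, *Slc20a2*, *Xpr1* and *Kl*. They were taken by name, and all 10 were found among the 23946 genes listed. Calvarial bone RNA of mice at postnatal day 21, on a C57BL/6J background, was sequenced in 4 libraries, 1 for each combination of genotype (wild type or *Twist1*+/-) and bone (frontal or parietal). *Twist1*+/- mice carry 1 functional copy of the transcription factor gene *Twist1* in every cell, and the frontal bone derives from neural crest whereas the parietal bone derives from mesoderm. The RNA came from 12 mice of each strain, and the study describes the bones as including pericranium and dura mater. Values are FPKM (fragments of a transcript scaled by its length and by the depth of the library), so levels of different genes can be set side by side. The study speaks of replicates, but 1 library per condition was analysed here, and whether others were made is not clear from the sources used here. There is therefore no replicate check, no error between animals and no p-value for any difference given here. A gene was counted as past 3-fold when its FPKM ratio exceeded 3 and the higher library reached 1 FPKM. A gene listed at 0 in the lower library was counted as well if the higher reached 1 FPKM. Such genes are included in the shares over all genes and in the marker counts.

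FGF23 is a hormone secreted mainly by osteocytes, the cells buried in bone matrix, and by osteoblasts. In the kidney it acts through FGF receptors with the co-receptor Klotho to lower phosphate reabsorption and active vitamin D. In bone, loss of the peptidase PHEX or of the matrix protein DMP1 raises FGF23. The kinase FAM20C and the glycosyltransferase GALNT3 act on the FGF23 protein itself, the first favouring its cleavage and the second protecting it. SLC20A1, SLC20A2 and XPR1 carry phosphate across the cell membrane, the first pair inward and the last outward.

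*Twist1* itself was at 59.0 FPKM in the frontal and 52.5 in the parietal bone of wild-type mice. Under the *Twist1*+/- label it was at 30.4 FPKM in frontal but at 50.7 in parietal bone, close to wild type. The latter library is therefore named by its label throughout, and every genotype direction in parietal bone rests on that label. Unless said otherwise, the 4 values of a gene follow the order frontal then parietal for wild type, and frontal then parietal (as labelled) for *Twist1*+/-. Bone was present in all libraries, with the osteoblast product *Bglap* between 5220 and 7982 FPKM. The libraries also differed in markers of other tissues. Summed over 8 genes, skeletal muscle markers came to 116 FPKM in the frontal bone of the wild type and to between 1374 and 3596 in the other libraries. Nasal and airway markers (6 genes, *Scgb1a1* listed at 0 in all libraries) came to 17.2 FPKM in the wild-type parietal library and to between 262 and 1482 elsewhere, and tooth markers (8 genes) were at 4.86 against 23.1 to 128. Meningeal and brain markers (8 genes) came to 127 FPKM there and to between 644 and 2267 elsewhere, and osteoclast markers (6 genes) were highest there, at 8965 against 2544 to 6614. Erythroid genes (6) came to between 29646 and 45957 FPKM in 3 libraries and to 1277 in the frontal bone of the wild type, where alone *Hba-a1* and *Hbb-b1* are listed at 0, so that this sum cannot be compared with the others. Myeloid genes (7) came to between 7269 and 16477, and B lineage genes (5) to between 66.9 and 169. A listed 0 need not mean absence, since the collagen genes *Col1a1* and *Col1a2* are listed at 0 in 3 of the 4 libraries. All 10 members were above 0 in every library.

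In mm9, *Fgf23* occupies chromosome 6 from 127022920 to 127031426, with 3 annotated exons. *Phex* lies on chromosome X from 153596618 to 153853244. *Dmp1* (chromosome 5 from 104631632 to 104643121) and *Mepe* (chromosome 5 from 104754348 to 104767630) lie close together. The 250 bases upstream of their RefSeq start sites are shown because osteocytes express these 4 genes. A further reason is that Twist1 belongs to the basic helix-loop-helix factors that bind the E-box, CANNTG. Of the 4, only *Fgf23* passed 3-fold in any comparison below. Sequences are from RefSeq (GRCm38.p6), read 5′ to 3′ on the strand of the gene, each was found exactly once in mm9 at the coordinates given, and capitals mark CANNTG.
Fgf23, chr6:127022670-127022919, forward strand: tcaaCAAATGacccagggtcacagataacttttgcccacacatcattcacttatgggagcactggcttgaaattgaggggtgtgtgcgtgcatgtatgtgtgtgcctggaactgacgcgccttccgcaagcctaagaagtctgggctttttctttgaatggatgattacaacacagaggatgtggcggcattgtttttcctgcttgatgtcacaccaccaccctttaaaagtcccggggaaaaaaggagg
Phex, chrX:153853219-153853468, reverse strand: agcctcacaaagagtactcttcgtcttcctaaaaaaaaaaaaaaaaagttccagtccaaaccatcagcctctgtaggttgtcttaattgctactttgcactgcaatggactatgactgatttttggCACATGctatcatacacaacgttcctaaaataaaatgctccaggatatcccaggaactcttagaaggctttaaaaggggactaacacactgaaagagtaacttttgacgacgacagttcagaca
Dmp1, chr5:104631386-104631635, forward strand: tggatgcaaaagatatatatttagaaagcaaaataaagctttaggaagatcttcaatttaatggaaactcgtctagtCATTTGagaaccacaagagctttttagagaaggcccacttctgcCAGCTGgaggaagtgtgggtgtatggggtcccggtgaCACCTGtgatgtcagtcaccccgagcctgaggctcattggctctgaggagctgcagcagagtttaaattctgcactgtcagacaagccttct
Mepe, chr5:104754098-104754347, forward strand: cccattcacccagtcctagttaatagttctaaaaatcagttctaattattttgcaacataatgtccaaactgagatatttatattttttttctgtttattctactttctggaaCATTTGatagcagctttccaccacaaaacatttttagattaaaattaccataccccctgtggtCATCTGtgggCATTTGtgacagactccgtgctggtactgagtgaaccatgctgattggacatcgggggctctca
The *Fgf23* window held 1 match, CAAATG, whose first base lies at -246 from the start site, and the *Phex* window held 1, CACATG at -124. The *Dmp1* window held 3, with CATTTG at -173, CAGCTG at -129 and CACCTG at -92, and the *Mepe* window held 3, with CATTTG at -137, CATCTG at -74 and CATTTG at -64. CANNTG reads the same on both strands, so each match was counted once. Among 32851 RefSeq windows of the same length, 66.2% held at least 1 match and 12.2% held at least 3. A second RefSeq start site of *Dmp1*, at -5038 from the annotated gene start in mm9, had 5 matches in its window. Windows were given for 9 of the 10 members, 11 windows in all, and 10 of these held at least 1 match. A match describes letters and measures no binding.

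The hormone gene itself had the widest range of the members. *Fgf23* was at 0.525 FPKM in the frontal and 20.9 in the parietal bone of the wild type, and under the *Twist1*+/- label at 1.0 in frontal and 0.202 in parietal bone. The wild-type parietal library stood alone at the top, and the parietal library labelled *Twist1*+/- was the lowest. The highest value was 103 times the lowest, against 1.12 to 10.3 times for the other members. Within wild-type parietal bone *Fgf23* exceeded 84.5% of all genes, and in the other libraries it exceeded 33.1% to 41.4%.

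How few reads lie behind the low values could be gauged from the files, because FPKM multiplied by transcript length gathers in steps among low genes. If the lowest step is 1 read, the *Fgf23* values correspond to about 37, 881, 53 and 8 reads. The exact 95% Poisson interval, which covers counting error only, was then 19.5 to 22.3 FPKM for the wild-type and 0.0830 to 0.379 FPKM for the labelled *Twist1*+/- parietal library. The intervals of the frontal libraries, 0.372 to 0.729 for wild type and 0.748 to 1.31 for *Twist1*+/-, did not overlap either. If the next step is 1 read, the reads number 18, 441, 27 and 4 in the same order. The frontal intervals then overlapped (0.305 to 0.813 and 0.671 to 1.48 FPKM), while that of wild-type parietal bone, 19.0 to 22.9, stayed apart from all others. Both readings imply fewer mapped reads than the mean depth the study gives, so these read numbers are approximate and the intervals conditional on the reading. Of 1740 windows of 75 bases in the *Fgf23* transcript, 0 recurred in another annotated gene.

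**Figure D1:**
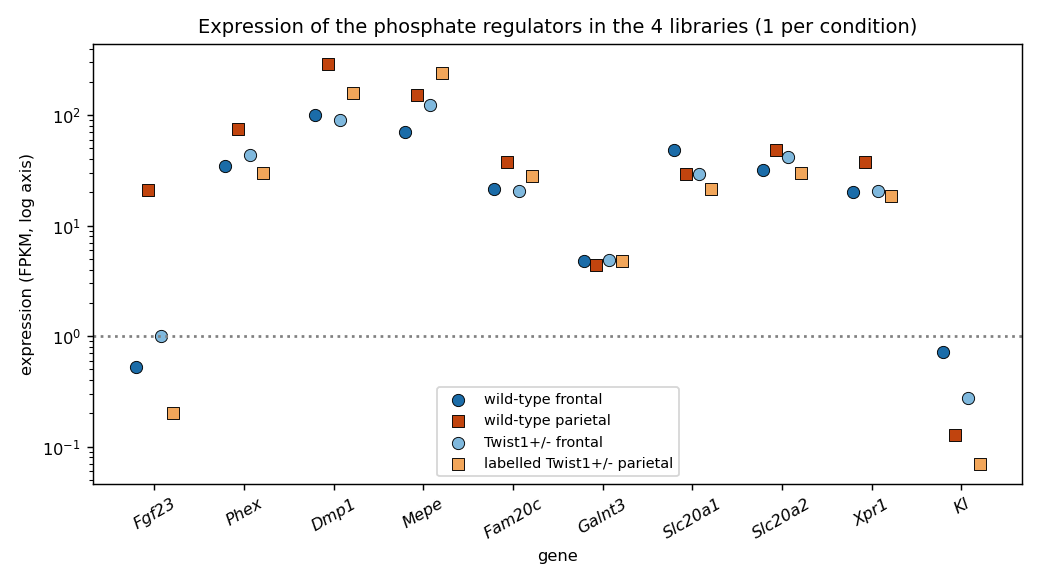
Expression (FPKM, log axis) of the 10 members, with a point for each of the 4 libraries, circles for frontal and squares for parietal bone, and a dotted line at 1 FPKM. *Fgf23* in wild-type parietal bone (20.9 FPKM) stands apart from its other values (0.202 to 1.0 FPKM), *Galnt3* varies least, and *Kl* stays under 1 FPKM in all 4 libraries.

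*Phex*, *Dmp1* and *Mepe*, which osteocytes express, did not share the range of *Fgf23*. *Phex*, which encodes a membrane peptidase, was at 34.5, 75.7, 43.3 and 30.3 FPKM. Its libraries stood in the same order as those of *Fgf23*, an order that *Slc20a2* and *Xpr1* also had. The highest *Phex* value was only 2.5 times the lowest. *Dmp1*, an acidic matrix protein that binds calcium, was at 99.4, 291, 91.1 and 159 FPKM. Both parietal libraries were above both frontal libraries for *Dmp1*. *Mepe*, a matrix glycoprotein of the same family as DMP1, was at 70.5, 152, 124 and 239 FPKM. *Mepe* was the only member with its highest value in the library labelled *Twist1*+/- parietal bone, and in each bone it was higher under the *Twist1*+/- label.

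Of the genes for enzymes that act on the FGF23 protein, *Galnt3* ranged 1.12-fold and *Fam20c* 1.82-fold from the lowest to the highest library. *Galnt3* was at 4.81, 4.4, 4.93 and 4.74 FPKM. It was thus nearly level across libraries between which *Fgf23* ranged 103-fold. *Fam20c* was at 21.6, 37.6, 20.7 and 28.3 FPKM in the same order, higher in parietal than in frontal bone under either genotype label, although with scaling to the osteoblast list the order turned for *Twist1*+/- (log2 ratio of parietal to frontal bone -0.21).

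Among the phosphate carriers, *Slc20a1* went the opposite way between the wild-type bones from the other members of this group. *Slc20a1* was at 48.1, 29.5, 29.6 and 21.4 FPKM, highest in wild-type frontal bone. *Slc20a2* was at 31.9, 48.7, 41.6 and 30.2 FPKM, and the exporter *Xpr1* at 20.2, 37.5, 20.7 and 18.6 FPKM, each highest in wild-type parietal bone. For *Xpr1* the other 3 libraries lay within 2.04 FPKM of each other. In the mm9 annotation *Slc20a2* overlaps *AI316807* on the opposite strand at its first exon, and 106 of the 3575 windows of 75 bases in its transcript also occur there. *Slc20a1* overlaps a long noncoding RNA gene on the opposite strand. The libraries were stranded, but whether strand was used in quantification is not given in the sources used here.

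The co-receptor gene *Kl* was at 0.723, 0.129, 0.277 and 0.0700 FPKM, under 1 FPKM in every library and the lowest or next to lowest member in each. With the lowest step as 1 read these values correspond to about 142, 15, 41 and 8 reads. Kidney and parathyroid markers were near 0 as well, with the sum of 6 genes between 0.323 and 1.05 FPKM and the hormone gene *Pth* listed at 0 in all libraries. The choroid plexus also expresses Klotho, and its marker *Ttr* was between 9.23 and 23.7 FPKM, highest in the wild-type parietal library. Another of its markers, *Folr1*, was between 0.195 and 0.775 FPKM, lowest in that library. The summed level of the meningeal and brain markers was highest in the frontal bone of the wild type and lowest in wild-type parietal bone. *Ptgds* alone gave 1975 of the 2267 FPKM in wild-type frontal bone, and the high place of that library rests on this gene. The part of these tissues in the *Kl* values was not tested.

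Of the 10 members, 6 had their highest value in wild-type parietal bone (*Fgf23*, *Phex*, *Dmp1*, *Fam20c*, *Slc20a2* and *Xpr1*), or 60%, against 35.5% of the 14760 genes that reached 1 FPKM in at least 1 library. *Kl*, counted among the 10 members, did not reach that level in any library. A higher level in bulk RNA can mean more cells of a type or more RNA per cell, and these cannot be told apart here.

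The first comparison asks how the *Twist1*+/- label went with these genes in parietal bone. *Fgf23* had a log2 ratio of -6.69 of the library labelled *Twist1*+/- to the wild type, and no other member passed 3-fold. Across all genes 8.19% of those at 1 FPKM passed 3-fold in either direction (5.25% higher, 2.94% lower), and 1 of the 9 members at that level did. Of the 13800 genes above 0 in both libraries, 0.0217% had a lower ratio than *Fgf23*. *Phex* had a log2 ratio of -1.32, with 4.28% of genes below it, *Xpr1* -1.01 (8.89% below) and *Dmp1* -0.87 (12.3% below). *Slc20a2* was at -0.69, *Slc20a1* at -0.46, *Fam20c* at -0.41, *Galnt3* at 0.11 and *Mepe* at 0.65, above 81.3% of genes. The median over the 9 members at 1 FPKM was -0.69, against -0.06 over all genes, whose interquartile range was -0.55 to 0.48.

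The size of these smaller ratios depended on how the parietal libraries were put on a common scale. Ratios in this comparison followed the GC content of the transcript (Spearman's rho 0.546 across 12554 genes, which share the 2 libraries and are not independent). *Phex*, with a GC content of 39.6%, and *Xpr1*, with 43.5%, lie where the median gene had a ratio of -0.59. After subtraction of that trend *Phex* was at -0.73 and *Xpr1* at -0.42, while *Fgf23* (54.7% GC) was at -6.93. The same subtraction moved *Fam20c* (62.1% GC) from -0.41 to -1.11 and *Galnt3* (44.1% GC) from 0.11 to 0.64. Ratios of genes outside the members are given below without this subtraction. Scaling to the same level of 10 osteoblast genes, whose median ratio was 0.62, moved all genes by -0.49, whereupon *Phex* passed 3-fold at -1.81 and *Galnt3* was at -0.38. Scaling to *Gapdh* moved all genes by 0.39. *Fgf23* was past 3-fold under each scaling tried, between -7.18 and -6.30.

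**Figure D2:**
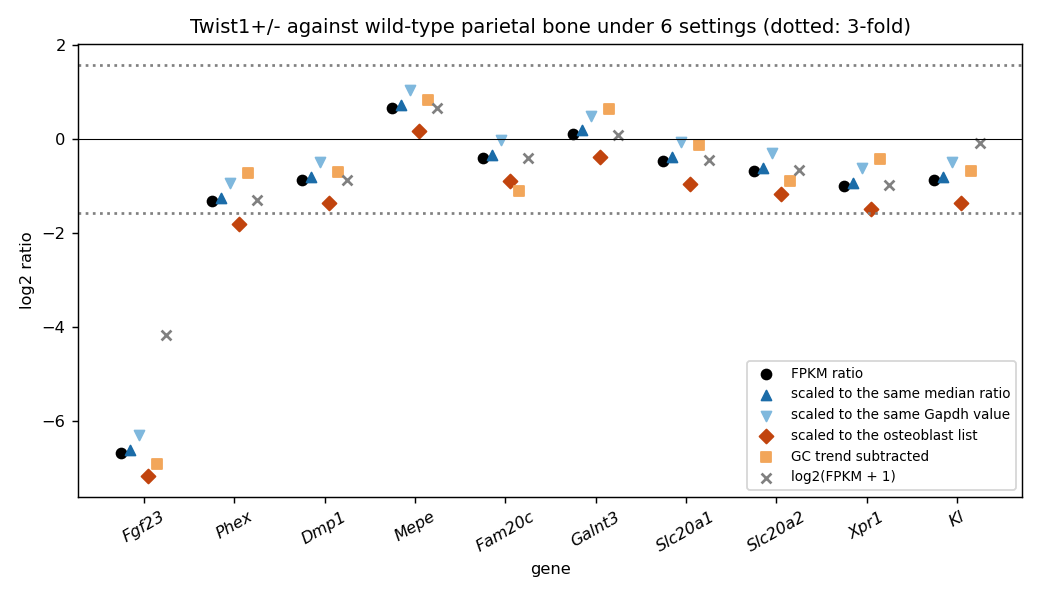
Log2 ratio of *Twist1*+/- (as labelled) to wild-type parietal bone for each member as deposited and under 5 other settings, with dotted lines at 3-fold. *Fgf23* lies far below the 3-fold line under all 6 settings (-7.18 to -4.19), *Phex* passes it only with scaling to the osteoblast list, and *Galnt3* changes sign.

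In frontal bone the same genotype contrast, for which *Twist1* itself was lower under the *Twist1*+/- label, left every member within 3-fold (0 of 9 at 1 FPKM, against 3.89% of all genes, 3.17% higher and 0.725% lower). *Fgf23* had a log2 ratio of 0.94, *Mepe* 0.82, *Slc20a2* 0.38, *Phex* 0.32, *Galnt3* 0.03, *Xpr1* 0.03, *Fam20c* -0.07, *Dmp1* -0.13 and *Slc20a1* -0.70, of which those of *Galnt3* and *Xpr1* turned to -0.07 with scaling to *Gapdh*. *Fgf23* and *Mepe* lay above 95% and 94.4% of genes, and *Slc20a1* above 4.83%. *Kl*, under 1 FPKM in both libraries, was at -1.38. *Mepe* and *Slc20a1* thus had the same direction under the *Twist1*+/- label in frontal as in parietal bone, upward for the first and downward for the second. The dentin gene *Dspp* was at 37.6 FPKM in *Twist1*+/- frontal bone and 0.0771 in wild-type frontal bone, and 5 of 8 tooth markers and 8 of 8 muscle markers were past 3-fold higher. Teeth also express *Dmp1*, *Mepe*, *Phex* and *Fam20c*, and the part of tooth RNA in their values was not tested.

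Between the wild-type bones, *Fgf23* was higher in parietal bone by 5.31 on the log2 scale, above 99.8% of genes. It was the only member past 3-fold of the 9 at 1 FPKM, against 13.3% of all genes in either direction (4.07% higher and 9.2% lower). *Dmp1* lay just inside the threshold at 1.55, a 2.92-fold difference. *Phex* (1.13), *Mepe* (1.11), *Xpr1* (0.89), *Fam20c* (0.80) and *Slc20a2* (0.61) were also higher in parietal bone. *Galnt3* (-0.13) and *Slc20a1* (-0.70) were lower. The median over the 9 members was 0.89, against -0.01 over all genes. *Kl* was at -2.49 but under 1 FPKM in both bones. The wild-type parietal library enters this comparison and the genotype comparison in parietal bone, so the 2 sets of ratios are not independent.

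Between the *Twist1*+/- bones the order of *Fgf23* was the reverse, with 0.202 FPKM in the labelled parietal and 1.0 in the frontal library, a log2 ratio of -2.31. It was the only member past 3-fold, against 4.09% of all genes (0.846% higher and 3.24% lower). The frontal value only just reached 1 FPKM. *Mepe* (0.94), *Dmp1* (0.80) and *Fam20c* (0.46) were higher in the labelled parietal library, as between the wild-type bones, *Fam20c* except with scaling to the osteoblast list. *Phex* (-0.52), *Slc20a1* (-0.46), *Slc20a2* (-0.46), *Xpr1* (-0.15) and *Galnt3* (-0.06) were lower, the last pair except after subtraction of the GC trend (0.16 and 0.26). That subtraction also left *Phex* at -0.0046 and *Fam20c* at 0.04 in this comparison, so that neither difference remained.

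**Figure D3:**
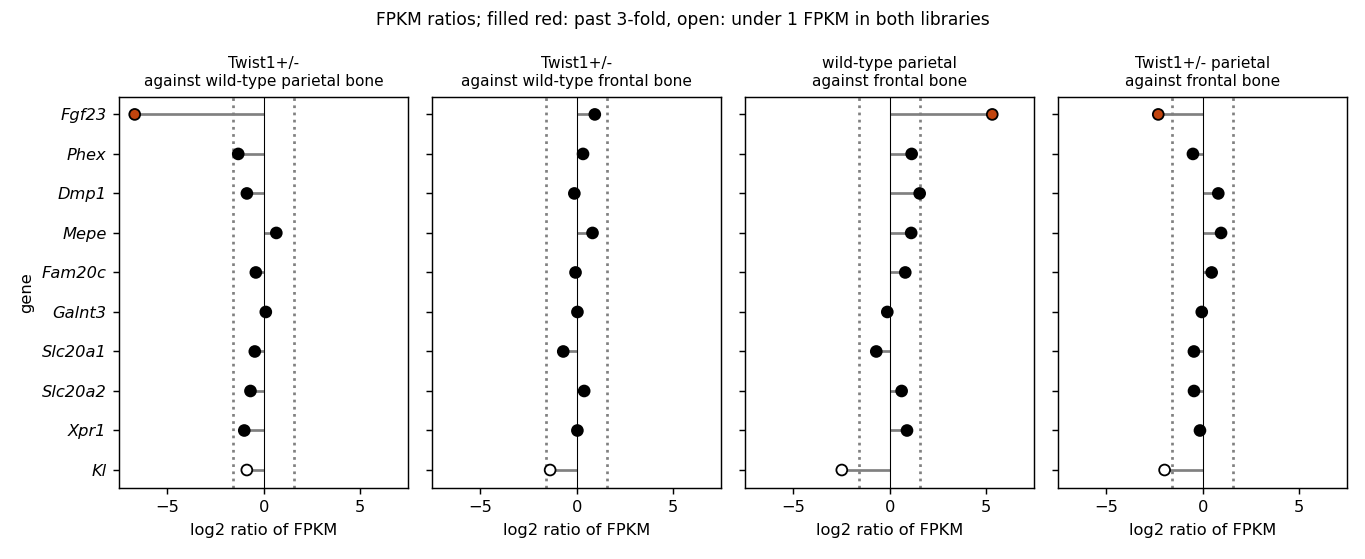
Log2 ratio of FPKM for the 10 members in the 4 comparisons, with dotted lines at 3-fold, red points past 3-fold and open points under 1 FPKM in both libraries. *Fgf23* alone is past 3-fold, at -6.69, 5.31 and -2.31 in 3 comparisons, and *Dmp1* lies just inside the line between the wild-type bones.

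**Figure D4:**
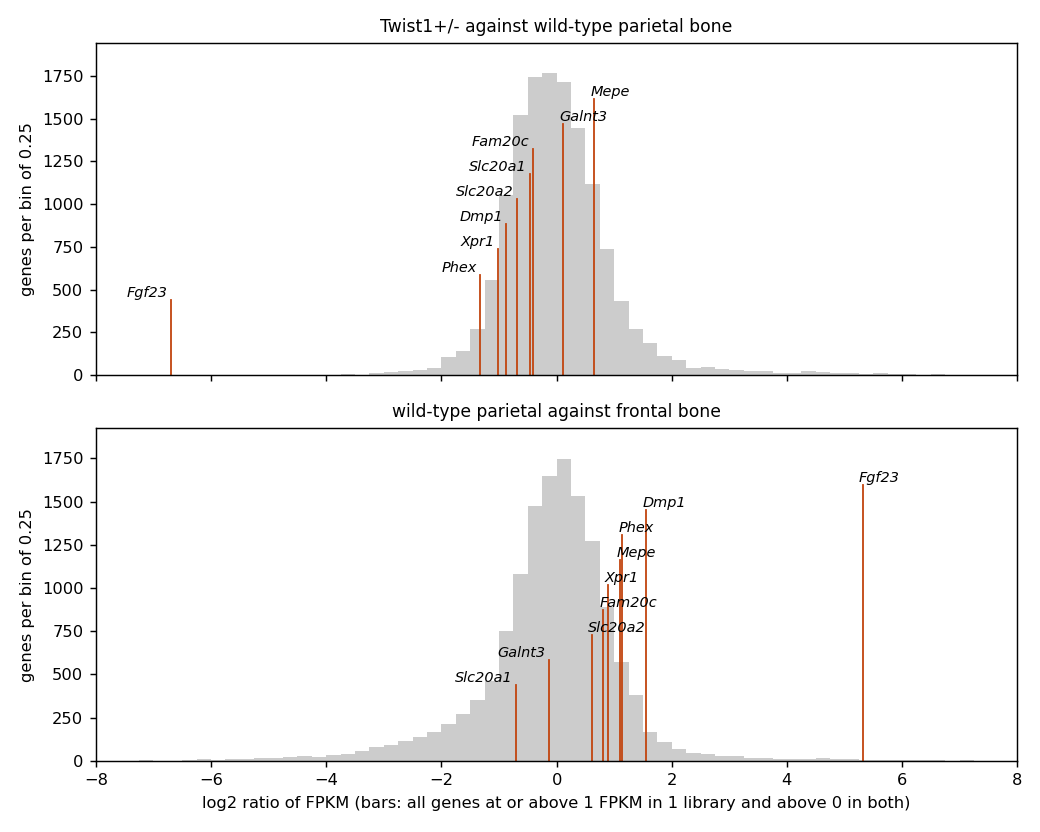
Histograms of the log2 ratio of FPKM over all genes that reached 1 FPKM in either library and were above 0 in both, in bins of 0.25, for *Twist1*+/- (as labelled) against wild-type parietal bone and for wild-type parietal against frontal bone. Red lines mark the 9 members at that level; their heights carry no value, and *Fgf23* lies in the outer tail of each histogram, at -6.69 and 5.31.

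Ratios between members within a library do not depend on how libraries are scaled, and these pairs were chosen after their values were seen. *Dmp1* exceeded *Mepe* in the wild-type libraries, 1.41 to 1 in frontal and 1.91 to 1 in parietal bone. It was below *Mepe* in the *Twist1*+/- libraries, at 0.734 in frontal and 0.664 in the labelled parietal library. These genes are close in GC content, 50.6% and 49.5%. The bone sialoprotein gene *Ibsp*, which lies between them, was at 3.94 and 5.71 times *Mepe* in the wild-type frontal and parietal libraries and at 3.12 and 2.94 times in the *Twist1*+/- libraries. The ratio of *Phex* to *Mepe* was 0.490, 0.498, 0.348 and 0.127 across the libraries, lowest under the *Twist1*+/- label in parietal bone. The GC content of this pair differs, at 39.6% for *Phex* and 49.5% for *Mepe*. At those GC contents the median gene had log2 ratios of -0.59 and -0.19 between the parietal libraries. *Slc20a1* exceeded *Slc20a2* in wild-type frontal bone only, at 1.51, and was at 0.606, 0.711 and 0.709 of it in the other libraries. *Fgf23* was at 0.0718 of *Dmp1* in wild-type parietal bone, against 0.00528, 0.0110 and 0.00127 in the others. *Fgf23* stayed below *Dmp1*, *Mepe* and *Phex* in every library.

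**Figure D5:**
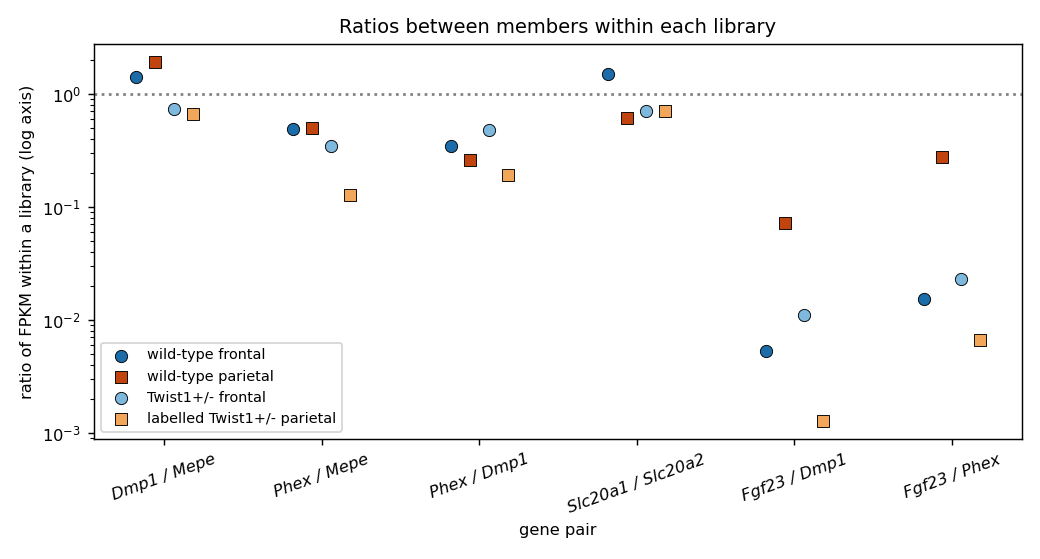
Ratio of FPKM between pairs of members within each library (log axis), with a dotted line at equal levels. *Dmp1* to *Mepe* lies above 1 in both wild-type libraries and below 1 in both *Twist1*+/- libraries, and the ratios with *Fgf23* are highest in wild-type parietal bone.

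The genes beside *Fgf23* did not share its range. The 3 nearest measured coding genes on each side on chromosome 6 were *Rad51ap1*, *D6Wsu163e* and *Fgf6* before it and *9630033F20Rik*, *Ccnd2* and *Parp11* after it. Their log2 ratios between the parietal libraries ran from -0.84 (*Ccnd2*, a cyclin) to -0.14 (*9630033F20Rik*), and none passed 3-fold. *Fgf6* was under 0.2 FPKM in both parietal libraries and listed at 0 in both frontal libraries. On chromosome 5, *Dmp1* and *Mepe* belong to a run of 5 mineral matrix genes on the forward strand, *Dspp*, *Dmp1*, *Ibsp*, *Mepe* and *Spp1*, from 104599731 to 104870069. Between the wild-type bones *Dmp1* (1.55), *Ibsp* (1.65), *Mepe* (1.11) and the osteopontin gene *Spp1* (1.58) were all higher in parietal bone. Between the parietal libraries *Spp1* (-0.86), *Dmp1* (-0.87) and *Ibsp* (-0.31) were lower under the *Twist1*+/- label and *Mepe* (0.65) was higher. *Dspp* was listed at 0 in wild-type parietal bone and at 3.14 FPKM in the labelled *Twist1*+/- parietal library.

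The distance between the centred log2 profiles over the 4 libraries is formed from the same values. It grows with the range of a gene, so it restates the wide range of *Fgf23*. *Fgf23* was at least 4.0 from every other member compared (*Kl*, which did not reach 1 FPKM, was left out), with *Phex* the nearest, while the other members were between 0.31 (*Phex* and *Xpr1*) and 2.09 (*Mepe* and *Slc20a1*) apart. Among 14542 genes above 0 in all libraries, those most like *Fgf23* were *Zim1* (distance 0.99), *Gm5416* (1.32), *Arhgap36* (1.39), *Lipi* (1.55) and *Agtr2* (1.61), an angiotensin receptor gene. *Zim1*, a zinc finger gene, was at 0.468, 7.56, 0.423 and 0.116 FPKM. No candidate came within 0.5 of *Fgf23*, whereas 740 did for *Phex*, 524 for *Dmp1* and 90 for *Mepe*. The nearest to *Dmp1* were *Tmem100* (0.06), *Tmem258*, *Prdm6*, *Slirp* and *Malsu1*, those nearest to *Mepe* were *4930413G21Rik* (0.08), *Gm15910*, *Rpph1*, *6430531B16Rik* and *Gper1*, and those nearest to *Phex* were *Pon3* (0.08), *Zfp810*, *Glmn*, *Amot* and *Mipol1*. With 4 values per gene such likeness is a description only.

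Other genes around FGF23 signalling were followed in a list of 10, of which 8 reached 1 FPKM in each comparison. Between the parietal libraries 1 was past 3-fold lower and 0 higher, between the wild-type bones 2 were higher in parietal bone and 0 lower, and in the other comparisons none passed. The exception in the parietal comparison was *Sfrp4*, a secreted Wnt inhibitor that has, like FGF23, been described as a phosphate-lowering factor. *Sfrp4* was at 14.3, 110, 15.0 and 27.8 FPKM. As with *Fgf23*, wild-type parietal bone was the high library, with a log2 ratio of 2.94 to wild-type frontal bone and the labelled *Twist1*+/- parietal library at -1.98 relative to it. *Fgf7*, another growth factor with phosphate-lowering activity, was at 1.04, 3.23, 1.29 and 2.07 FPKM, also highest in wild-type parietal bone and 1.64 above wild-type frontal bone on the log2 scale. The receptor *Fgfr1*, through which FGF23 mainly acts, was at 62.1, 63.7, 54.7 and 77.6 FPKM, while *Klb*, the co-receptor of other hormonal FGFs, stayed under 0.1 FPKM. *Furin*, a protease that cleaves FGF23, was at 26.2, 21.0, 27.5 and 37.8 FPKM, lowest where *Fgf23* was highest and highest where *Fgf23* was lowest.

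Of 9 genes for vitamin D, parathyroid hormone signalling, stanniocalcins and renal phosphate carriers, 4 reached 1 FPKM and 0 passed 3-fold in any comparison. *Pth1r*, the parathyroid hormone receptor of osteoblasts, was at 112, 114, 119 and 250 FPKM, highest in the labelled *Twist1*+/- parietal library. *Vdr*, the vitamin D receptor, was at 62.6, 37.3, 51.2 and 64.0 FPKM, lowest in wild-type parietal bone. *Cyp24a1*, which inactivates vitamin D, was listed at 0 in 3 libraries and at 0.0268 FPKM in the parietal bone of the wild type, and the renal phosphate carriers *Slc34a1*, *Slc34a2* and *Slc34a3* were under 0.2 FPKM throughout.

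Among 6 genes that set phosphate and pyrophosphate at the mineral, 1 was past 3-fold lower and 1 higher between the parietal libraries, 2 were higher between the wild-type bones, and none passed in the other comparisons. *Enpp1*, which makes the mineralization inhibitor pyrophosphate, was at 28.3, 92.2, 21.5 and 23.7 FPKM. It too was high in wild-type parietal bone alone, with a log2 ratio of -1.96 between the parietal libraries and of 1.70 between the wild-type bones. *Phospho1*, a phosphatase that releases phosphate for mineral, was at 135, 63.3, 138 and 242 FPKM, lowest in wild-type parietal bone and past 3-fold higher (1.93) in the labelled *Twist1*+/- parietal library. *Alpl*, the phosphatase that splits pyrophosphate, was at 144, 144, 172 and 248 FPKM and within 3-fold in every comparison. These genes were named by list, and no test across replicates bears on any of them.

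Osteocyte markers outside the members were measured beside them. The 6 genes of this list had a median log2 ratio of 0.78 between the parietal libraries and of -0.14 between the wild-type bones, against -0.69 and 0.89 for the members. The GC trend was subtracted from none of these medians. Between the parietal libraries that trend ran from a median ratio of -0.59 at the lowest to 0.70 at the highest GC content. Its part in the difference between the lists was not tested. *Sost*, the osteocyte inhibitor of Wnt signalling, was at 26.7, 18.3, 45.5 and 75.1 FPKM, lowest in wild-type parietal bone and past 3-fold higher (2.04) in the labelled *Twist1*+/- parietal library. *Pdpn*, a marker of early osteocytes, was at 18.9, 52.9, 18.0 and 24.2 FPKM, highest in wild-type parietal bone. The list of 10 osteoblast genes had medians of 0.62 and 0.01 in these comparisons. Between the parietal libraries, 5 of 6 nasal, 4 of 8 tooth and 4 of 8 meningeal and brain markers were also past 3-fold higher under the *Twist1*+/- label, and between the wild-type bones 7 of 8 muscle and 4 of 6 osteoclast markers were past 3-fold higher in parietal bone, while 6 of 8 meningeal and brain, 4 of 6 nasal, 4 of 7 myeloid and 3 of 5 B lineage markers were past 3-fold lower. The part of these tissues in the values of the members was not tested.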

How the data were processed

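RNA of frontal and parietal bones from wild-type and *Twist1*+/- mice was measured in 4 libraries, 1 per condition. Per the methods of the study and the labels, the authors captured poly(A) RNA, sequenced single-end reads of 75 bases, aligned them to mm9 with STAR 2.4.2a using the iGenomes annotation and quantified genes with Cuffdiff (Cufflinks 2.2.1). The authors deposited FPKM, with 1 value for each gene in a library, and the scaling option is not given in the sources used here. Samples were grouped by their labels.

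FPKM ratios were formed for 4 comparisons and called past 3-fold with a floor of 1 FPKM in the higher library. A gene listed at 0 gets no log2 ratio, but it was counted as past 3-fold where the other library reached 1 FPKM. Replicate tests were not possible. The members, gene lists and thresholds were chosen with earlier results of these data known. Genes named are the members, *Twist1*, checks, the lists, and the 5 genes nearest to *Fgf23*, *Dmp1*, *Mepe* and *Phex* by Euclidean distance of centred log2(FPKM) profiles; neighbouring genes and within-library pairs were added after values were seen. Reads were estimated from the spacing of FPKM times length in genes with 1 coding transcript of at least 900 bases. This estimate was also added after values were seen. In simulated data of 8095 genes the spacing was recovered within 1.45%. That simulation drew whole reads on the same transcript lengths, so it cannot show whether the lowest step in the data is 1 read. Genes near the steps outnumbered those between them 1.69-fold in the labelled *Twist1*+/- parietal library, against 2.64-fold to 3.62-fold elsewhere. The lowest step was 0.0259, 0.0430, 0.0342 and 0.0436 FPKM times kilobase in wild-type frontal, wild-type parietal, *Twist1*+/- frontal and labelled *Twist1*+/- parietal bone, so the frontal libraries were the deeper, and intervals cover counting error only. GC content, length, loci and shared windows came from GENCODE M1 (mm9), which is not the authors' annotation and holds all 10 members. Promoter windows came from RefSeq (GRCm38.p6) and were located in mm9 by exact match. Python 3.11.15, pandas 2.3.3 and scipy 1.17.1 were used. Alternatives were pseudocounts, floors, thresholds, 3 scalings and subtraction of the GC trend in 20 groups.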

Additional observations from a re-analysis of the deposited data

Results flagged for a closer look

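For 4 members the genotype contrast ran in opposite directions in the 2 bones, which is why they are listed here. With 1 library per condition the difference between the bones was not tested. *Fgf23* had a log2 ratio of -6.69 in parietal bone, as labelled, and 0.94 in frontal bone, a difference of -7.63. *Phex* had -1.32 and 0.32, a difference of -1.65. *Slc20a2* had -0.69 and 0.38, a difference of -1.07. *Xpr1* had -1.01 and 0.03, a difference of -1.04, and its frontal ratio changed sign, to -0.07, with scaling to *Gapdh*. For *Phex* and *Xpr1* the GC trend between the parietal libraries, a median of -0.59 at their GC content, moved in the same direction. With that trend subtracted in each bone, *Phex* was at -0.73 in parietal and 0.32 in frontal bone and *Xpr1* at -0.42 and 0.12, so the directions remained opposite and the gaps were smaller.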

How the results depend on the processing

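No paired analysis was possible because each condition has 1 library, and for the same reason no replicate could be left out. The count of members past 3-fold between the parietal libraries was 1 as reported, 3 with a threshold of 2-fold (*Fgf23*, *Phex* and *Xpr1*) and 2 with scaling to the osteoblast list. Between the wild-type bones it was 1, and became 2 without a floor, since *Kl* then counts, and 4 with a threshold of 2-fold. Between the *Twist1*+/- bones it was 1, became 2 without a floor, and was 0 on the log2(FPKM + 1) scale (where *Fgf23* was at -0.74), with a floor of 5 FPKM, with a threshold of 6-fold, and with scaling to *Gapdh*, under which the frontal *Fgf23* value fell below the floor. Between the frontal libraries it was 0 under every alternative. Of all genes at 1 FPKM and above 0 in both libraries, 19.6% passed 2-fold between the parietal libraries. The share was 26.4% between the wild-type bones, 11.5% between the *Twist1*+/- bones and 6.65% between the frontal libraries. Of 240 recomputed log2 ratios of members, 232 kept their direction and side of the threshold and 0 reversed a call. This count includes the pseudocount settings, which can change the size of a ratio but not its sign. A sign changed in 6 of 40 combinations of gene and comparison, all of *Galnt3*, *Xpr1* or *Fam20c* and none past 3-fold. On the log2(FPKM + 1) scale the parietal ratio of *Fgf23* was -4.19. Depth limits *Fgf23* and *Kl* most. In the labelled *Twist1*+/- parietal library each was at about 8 reads if the lowest step is 1 read, and at about 4 if the next step is. Both readings imply a lower depth than the study gives, so these read numbers are approximate.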
